A study of Mus musculus with 6 samples.

Results

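Interferon-stimulated genes and RNA sensors were examined as a list of 40 mouse genes, chosen by symbol from the 3 deposited tables. All 40 were found among the 22558 gene rows of each table. The list was drawn up with earlier results of these tables known, including the ratios between the ESC libraries, so those ratios are given here as a description and not as a test. Messenger RNA had been sequenced from 6 cultures of mouse pluripotent cells, with 1 library per culture and all cultures at passage 25. The embryonic stem cells (ESC) were of 129Sv background. One culture was a Cre knockout of the histone gene H2A.X (H2A.X KO), and its counterpart was Flox/Flox, in which the gene carries recombination sites. The induced pluripotent stem cells (iPSC) were of mixed 129Sv/C57 background. A 4N- line and a 4N+ line had been made from peritoneal fibroblasts (PF), and another 4N- line and 4N+ line from tail tip fibroblasts (TTF). The labels do not explain 4N; it was read, from knowledge outside them, as the outcome of tetraploid complementation, a test of whether a line can build a whole embryo. They also do not say whether a line is a single clone or whether the Flox/Flox cells had been exposed to Cre. All cultures had grown on feeder cells with LIF and were moved to gelatin before lysis to leave the feeders behind.

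Cells detect viral or misplaced RNA through sensors such as RIG-I and MDA5, which signal through MAVS to the transcription factors IRF3 and IRF7 and so to the interferon genes. Secreted interferon then acts through its receptor and JAK kinases on factors that include STAT2 and IRF9, which bind an interferon-stimulated response element (ISRE) and switch on a shared set of antiviral genes. Pluripotent stem cells are known for a weak response to interferon and for expressing some of these antiviral genes, the IFITM family among them, without it.

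Promoter sequences are shown for 5 genes to make that element visible. Isg15, Rsad2 and Cxcl10 were among the members furthest apart between the ESC libraries and carry the ISRE letters. Irf7 was also far apart but carries none in this window, and Ifitm2 carries them and stood high in all 6 libraries. Each sequence is the 250 bases upstream of the gene's start in RefSeq (GRCm38.p6), written in the direction of transcription. Capitals mark matches to GAAANNGAAA on either strand. The regions are chr4:156200819-156201068 for Isg15, chr12:26456453-26456702 for Rsad2, chr5:92348890-92349139 for Cxcl10, chr7:141266425-141266674 for Irf7 and chr7:140955962-140956211 for Ifitm2, all on the minus strand.
Isg15: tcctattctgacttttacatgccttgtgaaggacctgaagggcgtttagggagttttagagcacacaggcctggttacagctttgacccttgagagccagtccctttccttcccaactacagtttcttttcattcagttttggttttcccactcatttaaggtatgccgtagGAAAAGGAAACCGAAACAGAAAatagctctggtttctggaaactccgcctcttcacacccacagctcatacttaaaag
Rsad2: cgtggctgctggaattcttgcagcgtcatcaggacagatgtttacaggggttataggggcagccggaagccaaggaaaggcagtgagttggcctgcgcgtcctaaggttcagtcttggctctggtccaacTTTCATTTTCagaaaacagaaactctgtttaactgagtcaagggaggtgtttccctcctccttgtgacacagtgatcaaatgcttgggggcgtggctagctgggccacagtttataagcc
Cxcl10: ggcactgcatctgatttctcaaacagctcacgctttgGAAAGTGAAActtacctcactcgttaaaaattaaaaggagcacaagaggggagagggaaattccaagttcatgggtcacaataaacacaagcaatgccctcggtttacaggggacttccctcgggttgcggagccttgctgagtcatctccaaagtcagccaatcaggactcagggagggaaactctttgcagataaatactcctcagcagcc
Irf7: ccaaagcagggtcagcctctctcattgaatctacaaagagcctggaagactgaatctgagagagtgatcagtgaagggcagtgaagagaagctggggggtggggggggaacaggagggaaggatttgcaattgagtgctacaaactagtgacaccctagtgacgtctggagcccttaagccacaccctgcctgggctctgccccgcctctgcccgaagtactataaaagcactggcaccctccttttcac
Ifitm2: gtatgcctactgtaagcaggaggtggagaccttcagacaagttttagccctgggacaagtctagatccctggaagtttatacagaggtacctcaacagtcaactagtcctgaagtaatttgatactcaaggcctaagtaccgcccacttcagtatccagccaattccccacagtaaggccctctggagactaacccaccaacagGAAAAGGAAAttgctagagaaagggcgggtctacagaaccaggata
The Isg15 promoter holds 3 overlapping matches, which start 78, 72 and 66 bases upstream of the gene's start. Single matches start 120 bases upstream in Rsad2, on the opposite strand, 213 bases upstream in Cxcl10 and 46 bases upstream in Ifitm2. Promoters were found for 31 of the 40 members, each covering 250 bases before to 50 bases after the start. Of these, 18 (58.1%) held the ISRE letters on either strand, against 3.99% of 27025 genes with a promoter of the same length. Members are genes known to respond to interferon, so this share describes the list. A match is a string of letters, not a shown binding site.

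The targeted gene, H2afx, stood at 6.18 FPKM in the H2A.X KO cells against 34.9 FPKM in the Flox/Flox cells, the direction the labels give. FPKM is a count of sequenced fragments divided by transcript length and by the size of the library. Effective depth, recovered from the smallest steps between values, ran from 39058900 to 61180300 fragments per library. Pou5f1, Nanog and the other 4 pluripotency markers reached 1 FPKM in every library, and their summed level was 388 FPKM in the H2A.X KO cells, 611 FPKM in the Flox/Flox cells and 779 to 970 FPKM in the iPSC. The H2A.X KO library also stood apart in markers of other cell types. The 7 trophoblast markers summed to 893 FPKM there, against 35.1 FPKM in the Flox/Flox cells and 19.7 to 56.3 FPKM in the iPSC. The keratin genes Krt18, at 659 FPKM, and Krt8, at 188 FPKM, made up most of the sum in the H2A.X KO cells. The 8 macrophage markers summed to 58.7 FPKM in the H2A.X KO cells, against 12.9 FPKM in the Flox/Flox cells and 9.12 to 19.5 FPKM in the iPSC. Csf1r, Cd68 and Cd74 made up most of the macrophage sum, while Ptprc, Lyz2 and Emr1 were at 0.0900 FPKM or less in each library. The 4N+ PF line stood apart in the 9 fibroblast markers, which summed to 57.6 FPKM there and to between 2.32 and 8.13 FPKM in the other 5 libraries.

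**Figure D1:**
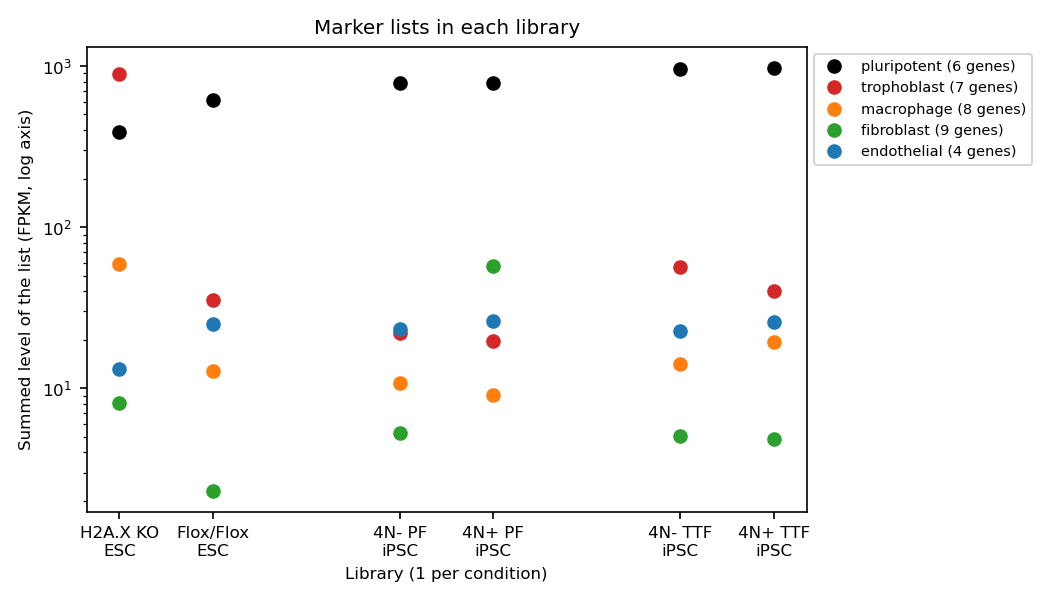
Summed FPKM (log axis) of 5 marker lists in each of the 6 libraries, 1 point per list and library. Trophoblast markers reach 893 FPKM in the H2A.X KO cells against 35.1 FPKM in the Flox/Flox cells, and fibroblast markers reach 57.6 FPKM in the 4N+ PF line.

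Most members were expressed at a low level. Of the 40, 18 reached 5 FPKM in the H2A.X KO cells, against 10 in the Flox/Flox cells and 9 to 11 in the iPSC lines. The number reaching 1 FPKM was 30 in the H2A.X KO cells, 18 in the Flox/Flox cells and 17 to 21 in the iPSC lines. Over all genes these numbers were close to each other, at 11852 in the H2A.X KO cells, 11031 in the Flox/Flox cells and 11144 to 11325 in the iPSC lines. The median member stood at 3.14 FPKM in the H2A.X KO cells, 0.741 FPKM in the Flox/Flox cells and 0.659 to 1.25 FPKM in the iPSC lines. The H2A.X KO cells had the highest level of the 6 libraries for 27 of the 40 members, counted without a minimum level. These include Ifih1, Oasl1, Ifit1, Ifit3, Mx1, Mx2 and Cmpk2, which were under 1 FPKM in every library. Of the 12575 genes at 1 FPKM or more in any library, 3214 were highest there, so the 2 counts rest on unlike sets. The tables may have been scaled separately, so levels set side by side across them carry that limit.

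**Figure D2:**
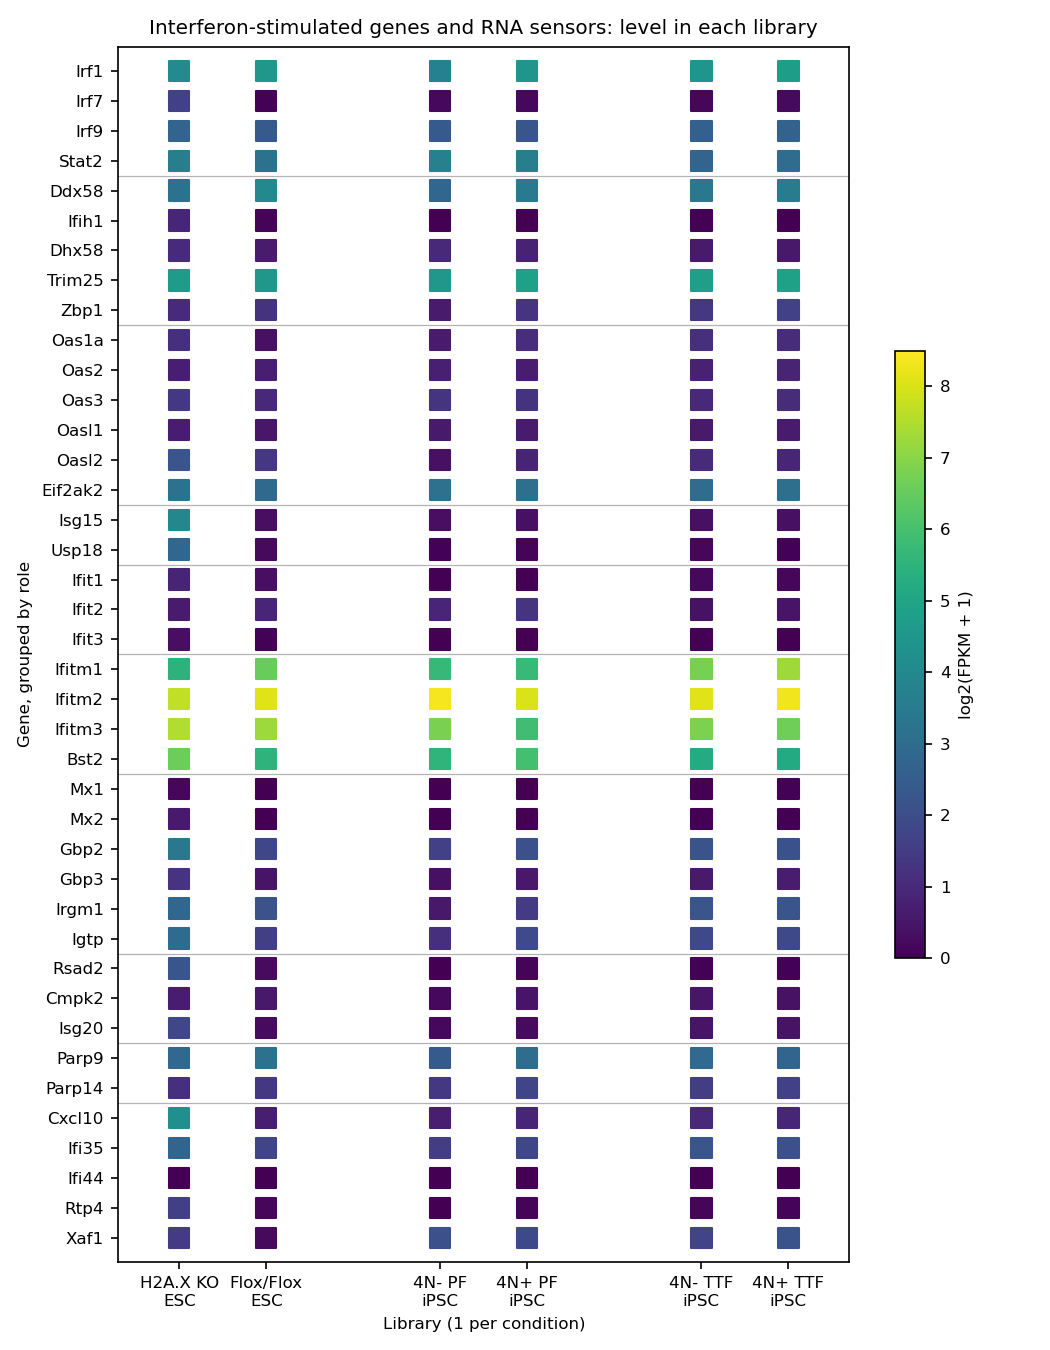
Level of each of the 40 members, as log2(FPKM + 1), in each of the 6 libraries, with genes in rows grouped by role (grey lines) and 1 library per condition in columns. The IFITM genes and Bst2 are bright in every library, and Isg15, Cxcl10, Usp18 and Rsad2 are bright in the H2A.X KO cells alone.

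The first comparison sets the H2A.X KO cells against the Flox/Flox cells. A group of classical antiviral genes was under 1 FPKM in the Flox/Flox cells and above 1 FPKM in the H2A.X KO cells. Of these, Isg15, Cxcl10, Usp18, Rsad2, Irf7, Rtp4, Isg20 and Xaf1 were 11.9-fold to 58.2-fold higher in FPKM. Mx2, Ifih1 and Mx1 also had ratios in that range but stayed under 1 FPKM in both. Gbp2, Igtp and Bst2, already present in the Flox/Flox cells, were 2.17-fold to 3.78-fold higher. Ifitm1 was 2.11-fold lower, and the sensor gene Ddx58 was also lower. With 1 library per condition there is no replicate check, and in a bulk culture fewer cells of a type and less RNA per cell cannot be told apart.

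Ratios were taken on log2(FPKM + 1), which understates the change of genes at a low level. On this scale 11 members were at least 2-fold higher in the H2A.X KO cells, where 7.49% of 12086 measured genes were, and 1 was at least 2-fold lower, where 3.72% of measured genes were. A gene counted as measured if it reached 1 FPKM in at least 1 of the compared libraries. This held for 30 members, of which 12 passed through the H2A.X KO library alone and so had to be higher there. Among these 12 were 8 of the 11 members at least 2-fold higher. Of all genes, 1055 passed the 1 FPKM filter in that way, and 343 of them were at least 2-fold higher. Without that filter 30 of 40 members were higher and 10 lower, with a median log2 ratio of 0.43, while of all 22558 genes 48.5% were higher and 34.1% lower. The member nearest inside the 2-fold limit was Bst2 at a log2 ratio of 1.10, and the nearest outside was Ifi35 at 0.99; on the lower side they were Ifitm1 at -1.06 and Ddx58 at -0.82.

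Members that the Flox/Flox cells expressed well did not share one direction. Of the 10 at 5 FPKM or more in the Flox/Flox cells, 5 were higher and 5 lower in the H2A.X KO cells. Of the 7401 genes at that level 2399 were higher and 5002 lower. The median log2 ratio was -0.14 for the 10 members and -0.23 for the 7401 genes. Of the 22 members under 1 FPKM in the Flox/Flox cells, 19 were higher and 3 lower. Of the 11527 genes at that level 6148 were higher, 1446 lower and 3933 equal. The median log2 ratio of the 6901 genes at 5 FPKM or more in both ESC libraries was -0.20. Relative to that shift, 15 members were at least 2-fold higher and 0 lower, and 1412 genes overall were higher and 202 lower, against 905 and 449 without it.

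**Figure D3:**
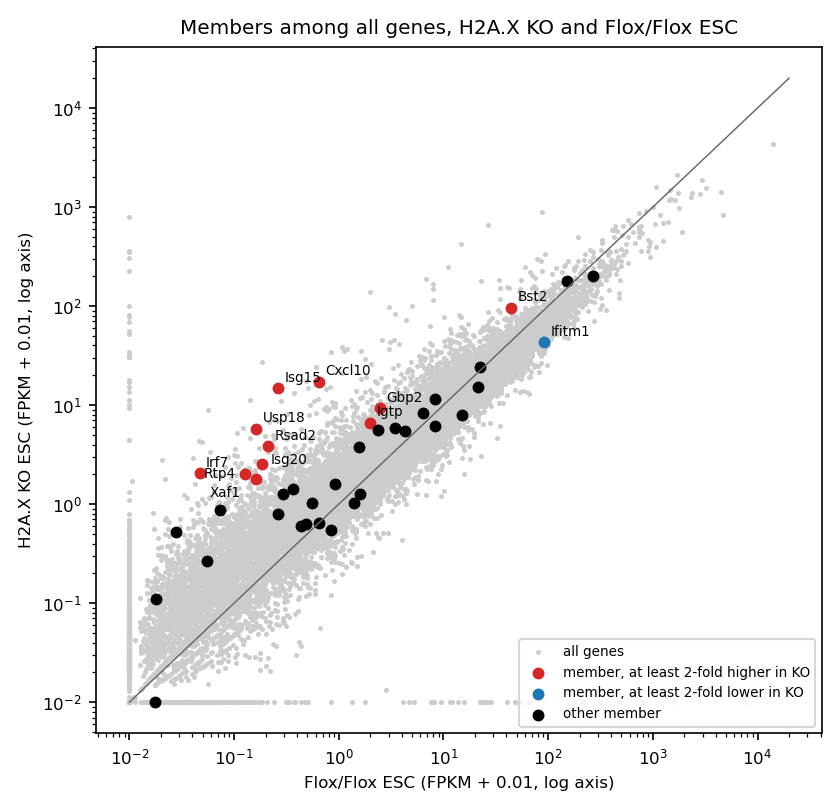
FPKM of every gene in the H2A.X KO cells (y axis) and the Flox/Flox cells (x axis), each with 0.01 added so that genes at 0 appear on log axes, with the line of equal level. The 11 members at least 2-fold higher on log2(FPKM + 1) are red, Ifitm1 is blue and the other members are black; Isg15 stands at 14.8 FPKM in the H2A.X KO cells against 0.254 FPKM in the Flox/Flox cells.

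The ISG15 system gave the largest ratio. Isg15 (chromosome 4, 155573533 to 155574927 on mm9), a small protein that is joined to others much as ubiquitin is, stood at 14.8 FPKM in the H2A.X KO cells against 0.254 FPKM in the Flox/Flox cells. It stood at 0.245 and 0.286 FPKM in the 4N- and 4N+ PF lines and at 0.266 and 0.276 FPKM in the 4N- and 4N+ TTF lines. The H2A.X KO library was thus the single high one, and the other 5 lay between 0.245 and 0.286 FPKM. These levels stood for 319 fragments in the H2A.X KO cells and 7 in the Flox/Flox cells, and the ratio was 58.2 (95% counting interval 27.9 to 146). Usp18, the protease that removes ISG15 and dampens interferon receptor signalling, stood at 5.77 FPKM in the H2A.X KO cells against 0.154 FPKM in the Flox/Flox cells. It was at 0.0288 and 0.0575 FPKM in the 4N- and 4N+ PF lines and at 0.115 and 0.0432 FPKM in the 4N- and 4N+ TTF lines. Its ratio between the ESC libraries was 37.5 (21.2 to 73.4), from 353 fragments in the H2A.X KO cells and 12 in the Flox/Flox cells, and Gm44148 overlaps it on the opposite strand. Intervals here are conditional exact binomial intervals on fragment numbers and cover counting error only.

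Among the chemokine and other induced genes, Cxcl10, a chemokine that attracts activated T cells, stood at 17.3 FPKM in the H2A.X KO cells against 0.630 FPKM in the Flox/Flox cells. In the 4N- and 4N+ PF lines it stood at 0.629 and 0.892 FPKM, and in the 4N- and 4N+ TTF lines at 0.951 and 0.866 FPKM. With 579 fragments in the H2A.X KO cells and 27 in the Flox/Flox cells, the ratio was 27.4 (18.6 to 41.9). Art3 overlaps Cxcl10 on the opposite strand. Because the labels do not say whether counting used strand, reads from the shared stretch cannot be told apart. Rtp4, a receptor transporter gene that interferon induces, was at 2.0 FPKM in the H2A.X KO cells against 0.117 FPKM in the Flox/Flox cells. It was at 0 and 0.0494 FPKM in the 4N- and 4N+ PF lines and at 0.0836 and 0.0617 FPKM in the 4N- and 4N+ TTF lines, so that again the H2A.X KO library alone was high. Ifi35, a cytoplasmic partner of other induced proteins, stood at 5.65 FPKM in the H2A.X KO cells, 2.34 FPKM in the Flox/Flox cells, 1.83 and 2.49 FPKM in the 4N- and 4N+ lines from PF, and 3.69 and 3.23 FPKM in the 4N- and 4N+ TTF lines. Ifi44 was listed at 0 in all libraries except the Flox/Flox cells, where it stood at 0.00742 FPKM.

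Xaf1, which antagonises the apoptosis inhibitor XIAP, followed another order. It stood at 1.80 FPKM in the H2A.X KO cells against 0.151 FPKM in the Flox/Flox cells, but at 3.18 and 2.68 FPKM in the 4N- and 4N+ lines from PF, and 2.25 and 3.55 FPKM in the 4N- and 4N+ TTF lines. All 4 iPSC lines therefore lay above the H2A.X KO cells, and the Flox/Flox library was the single low one. The ratio between the ESC libraries was 11.9 (7.31 to 20.6), from 168 fragments in the H2A.X KO cells and 18 in the Flox/Flox cells.

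Rsad2 and Isg20, of the nucleotide and RNA enzymes, also had a single high library. Rsad2, which encodes viperin, an enzyme that makes a chain-terminating nucleotide, stood at 3.87 FPKM in the H2A.X KO cells against 0.202 FPKM in the Flox/Flox cells. It was at 0.00629 and 0.0566 FPKM in the 4N- and 4N+ PF lines and at 0.0320 and 0.0425 FPKM in the 4N- and 4N+ TTF lines. The ratio between the ESC libraries was 19.2 (13.7 to 27.7), from 541 fragments in the H2A.X KO cells and 36 in the Flox/Flox cells. Isg20, an exonuclease that degrades viral RNA, was at 2.53 FPKM in the H2A.X KO cells, 0.175 FPKM in the Flox/Flox cells, 0.131 and 0.180 FPKM in the 4N- and 4N+ lines from PF, and 0.356 and 0.327 FPKM in the 4N- and 4N+ TTF lines. Cmpk2, the neighbour of Rsad2 and the kinase that supplies its substrate, did not share this difference in level. It stood at 0.618 FPKM in the H2A.X KO cells against 0.477 FPKM in the Flox/Flox cells, a ratio of 1.29 (0.920 to 1.82), and at 0.143 to 0.411 FPKM in the iPSC lines.

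**Figure D4:**
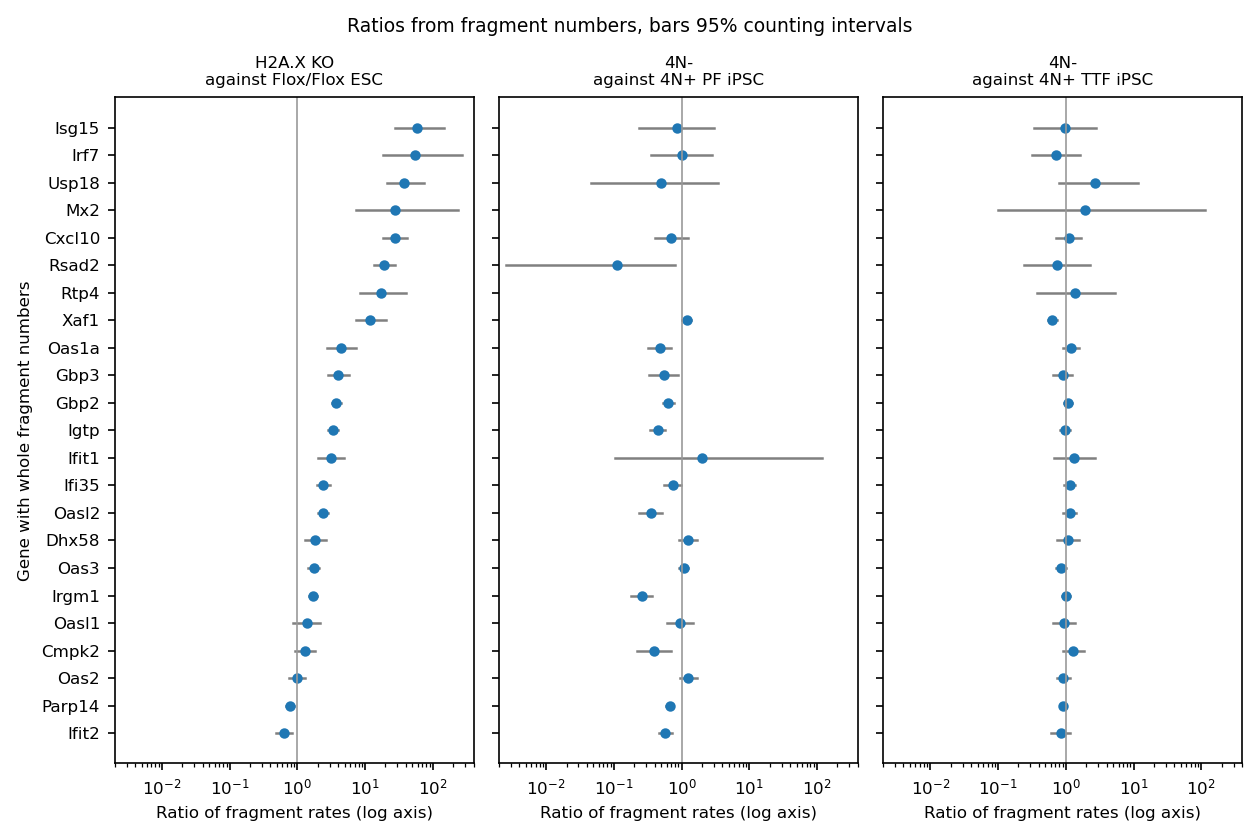
Ratio of fragment rates (log axis) with its 95% counting interval for the 23 members whose fragment numbers could be recovered, in each comparison; no point is drawn where a library had 0 fragments (Mx2 and Rtp4 in the PF pair). In the H2A.X KO against Flox/Flox panel Isg15 stands at 58.2 and Cmpk2 at 1.29; in the PF panel Irgm1 stands at 0.258.

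The transcription factors differed among themselves. Irf7, which amplifies interferon production and is itself induced by interferon, stood at 2.05 FPKM in the H2A.X KO cells against 0.0370 FPKM in the Flox/Flox cells. It was at 0.125 FPKM in both PF lines and at 0.121 and 0.166 FPKM in the 4N- and 4N+ TTF lines. With 130 fragments in the H2A.X KO cells and 3 in the Flox/Flox cells, its ratio was 55.3 with a wide counting interval (18.5 to 272), and Phrf1 overlaps it on the opposite strand. Stat2 and Irf9, whose products act together, were within 2-fold. Stat2 stood at 11.4 FPKM in the H2A.X KO cells, 8.26 FPKM in the Flox/Flox cells, 11.8 and 11.4 FPKM in the 4N- and 4N+ lines from PF, and 5.49 and 6.91 FPKM in the 4N- and 4N+ TTF lines. Irf9, which gives the pair its DNA binding, stood at 5.48 FPKM in the H2A.X KO cells, 4.24 FPKM in the Flox/Flox cells, 4.22 and 3.89 FPKM in the 4N- and 4N+ lines from PF, and 4.94 and 5.29 FPKM in the 4N- and 4N+ TTF lines. Irf1, an activator of many of these genes and of antigen presentation, was lower in the H2A.X KO cells and in both 4N- lines than in their counterparts, with 15.4 FPKM in the H2A.X KO cells against 21.5 FPKM in the Flox/Flox cells, 12.0 and 20.4 FPKM in the 4N- and 4N+ lines from PF, and 20.8 and 24.8 FPKM in the 4N- and 4N+ TTF lines.

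The RNA sensors included both low and well-expressed genes. Ddx58, which encodes the sensor RIG-I, stood at 8.0 FPKM in the H2A.X KO cells against 14.9 FPKM in the Flox/Flox cells, with a log2 ratio of -0.82. It stood at 5.90 and 10.2 FPKM in the 4N- and 4N+ PF lines and at 9.48 and 10.4 FPKM in the 4N- and 4N+ TTF lines, so the Flox/Flox cells held the highest level. Ifih1, which encodes the related sensor MDA5, had the opposite direction, with 0.872 FPKM in the H2A.X KO cells, 0.0642 FPKM in the Flox/Flox cells and 0.0174 to 0.0411 FPKM in the iPSC lines. Trim25, the ubiquitin ligase that acts with RIG-I, ranged from 21.4 to 27.9 FPKM over the 6 libraries, with 24.2 FPKM in the H2A.X KO cells, 22.3 FPKM in the Flox/Flox cells, 21.4 and 27.9 FPKM in the 4N- and 4N+ lines from PF, and 26.1 and 27.3 FPKM in the 4N- and 4N+ TTF lines. Dhx58, the regulatory sensor LGP2, stood between 0.452 and 1.01 FPKM, highest in the H2A.X KO cells. Zbp1, a sensor of left-handed nucleic acid that can trigger necroptosis, stood at 1.01 FPKM in the H2A.X KO cells against 1.38 FPKM in the Flox/Flox cells, at 0.539 and 1.40 FPKM in the 4N- and 4N+ PF lines, and at 1.53 and 2.06 FPKM in the 4N- and 4N+ TTF lines.

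Eif2ak2, whose kinase double-stranded RNA activates, and the listed genes of the oligoadenylate synthetase family were all within 2-fold on the log2(FPKM + 1) scale. Eif2ak2, which encodes the kinase PKR that halts translation, was the best expressed, at 8.28 FPKM in the H2A.X KO cells, 6.33 FPKM in the Flox/Flox cells, 7.88 and 7.18 FPKM in the 4N- and 4N+ lines from PF, and 6.77 and 7.46 FPKM in the 4N- and 4N+ TTF lines. Oasl2, of the oligoadenylate synthetase family, stood at 3.75 FPKM in the H2A.X KO cells against 1.57 FPKM in the Flox/Flox cells, a ratio of 2.40 (2.04 to 2.83). Oas1a stood at 1.26 FPKM in the H2A.X KO cells against 0.286 FPKM in the Flox/Flox cells, although 57.6% of its 50-base stretches also occur in other genes, so its level is uncertain. Oas2, Oas3 and Oasl1 lay between 0.428 and 1.59 FPKM in all 6 libraries, and the ratio of Oas2 between the ESC libraries was 0.993 (0.746 to 1.32).

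The membrane restriction factors, which block virus entry or release, were the most abundant members. Ifitm2 stood at 203 FPKM in the H2A.X KO cells, 269 FPKM in the Flox/Flox cells, 330 and 257 FPKM in the 4N- and 4N+ lines from PF, and 271 and 316 FPKM in the 4N- and 4N+ TTF lines. Ifitm3 stood at 180 FPKM in the H2A.X KO cells, 153 FPKM in the Flox/Flox cells, 110.0 and 58.1 FPKM in the 4N- and 4N+ lines from PF, and 113 and 98.2 FPKM in the 4N- and 4N+ TTF lines. Ifitm1 stood at 43.5 FPKM in the H2A.X KO cells, 92.0 FPKM in the Flox/Flox cells, 50.4 and 52.2 FPKM in the 4N- and 4N+ lines from PF, and 105 and 151 FPKM in the 4N- and 4N+ TTF lines. The 3 neighbours on chromosome 7 therefore did not share an order: Ifitm1 was lowest in the H2A.X KO cells, where Ifitm3 was highest. The log2 ratio of Ifitm1 between the ESC libraries was -1.06. Relative to the median of the genes at 5 FPKM or more in both ESC libraries it was -0.86. Reads of Ifitm2 may be shared with Ifitm3 and pseudogenes, since 48.5% of its 50-base stretches occur elsewhere. Bst2, or tetherin, which holds budding virus at the cell surface, stood at 96.3 FPKM in the H2A.X KO cells, 44.5 FPKM in the Flox/Flox cells, 45.5 and 61.6 FPKM in the 4N- and 4N+ lines from PF, and 35.5 and 34.6 FPKM in the 4N- and 4N+ TTF lines.

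All 6 GTPase genes had higher values in the H2A.X KO cells than in the Flox/Flox cells. Gbp2 and Igtp were at least 2-fold apart on log2(FPKM + 1), and Gbp3, Mx1 and Mx2 were so in FPKM alone. Gbp2, a guanylate-binding protein that attacks the vacuoles of intracellular pathogens, stood at 9.36 FPKM in the H2A.X KO cells, 2.48 FPKM in the Flox/Flox cells, 2.05 and 3.22 FPKM in the 4N- and 4N+ lines from PF, and 3.55 and 3.31 FPKM in the 4N- and 4N+ TTF lines. Igtp, an immunity-related GTPase, stood at 6.63 FPKM in the H2A.X KO cells, 2.0 FPKM in the Flox/Flox cells, 1.24 and 2.80 FPKM in the 4N- and 4N+ lines from PF, and 2.61 and 2.68 FPKM in the 4N- and 4N+ TTF lines. Between the ESC libraries the ratio was 3.78 (3.29 to 4.34) for Gbp2 and 3.32 (2.79 to 3.96) for Igtp, and 12.3% of Igtp's 50-base stretches also occur in other genes, among them the overlapping Irgm2. Irgm1, which regulates that family, stood at 5.90 FPKM in the H2A.X KO cells, 3.46 FPKM in the Flox/Flox cells, 0.468 and 1.82 FPKM in the 4N- and 4N+ lines from PF, and 3.67 and 3.65 FPKM in the 4N- and 4N+ TTF lines. Gbp3 stood at 1.42 FPKM in the H2A.X KO cells, 0.354 FPKM in the Flox/Flox cells and 0.259 to 0.555 FPKM in the iPSC lines. Mx1 and Mx2, dynamin-like proteins that trap viral ribonucleoprotein, were scarcely detected. Mx2 had 44 fragments in the H2A.X KO cells and 2 in the Flox/Flox cells, a ratio of 28.1 (7.33 to 239), and Mx1 was at 0.0997 FPKM in the H2A.X KO cells against 0.00805 FPKM in the Flox/Flox cells.

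The remaining families were low or within 2-fold on the log2(FPKM + 1) scale. None of the 3 IFIT genes, whose proteins bind foreign 5' RNA ends, reached 1 FPKM in either ESC library. Ifit1 stood at 0.789 FPKM in the H2A.X KO cells against 0.255 FPKM in the Flox/Flox cells, a ratio of 3.09 (2.01 to 4.86), while Ifit2 stood at 0.533 FPKM in the H2A.X KO cells against 0.841 FPKM in the Flox/Flox cells, a ratio of 0.634 (0.477 to 0.837). Ifit3 was at 0.257 FPKM in the H2A.X KO cells against 0.0447 FPKM in the Flox/Flox cells, with 51.2% of its 50-base stretches found elsewhere, mainly in its near copy Ifit3b. The ADP-ribosyltransferase genes had lower FPKM in the H2A.X KO cells. Parp9 stood at 6.08 FPKM in the H2A.X KO cells, 8.29 FPKM in the Flox/Flox cells, 4.16 and 6.90 FPKM in the 4N- and 4N+ lines from PF, and 6.52 and 5.66 FPKM in the 4N- and 4N+ TTF lines. Parp14 stood at 1.25 FPKM in the H2A.X KO cells against 1.59 FPKM in the Flox/Flox cells, a ratio of 0.783 (0.683 to 0.898).

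The authors' deposited table called 8 of the 38 members it tested between the ESC libraries, all of them higher in the H2A.X KO cells: Isg15, Usp18, Rsad2, Irf7, Cxcl10, Rtp4, Ifih1 and Xaf1. Of 14589 genes tested there, 1.38% were called higher and 0.0548% lower. These calls rest on the same single libraries as the ratios. The summed trophoblast and macrophage markers were also higher in the H2A.X KO cells, at 893 and 58.7 FPKM, against 35.1 and 12.9 FPKM in the Flox/Flox cells. Of these lists 6 of 7 trophoblast and 3 of 8 macrophage markers reached 1 FPKM in the H2A.X KO cells, against 2 and 1 in the Flox/Flox cells, and Elf5, a trophoblast stem cell factor, was at 0.0382 FPKM in the H2A.X KO cells against 0.0199 FPKM in the Flox/Flox cells. Their part in the members' ratios was not tested.

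The wider interferon pathway was followed through 57 further genes, of which 56 were in the tables under their listed symbols. Between the ESC libraries 34 were measured, of which 7 were at least 2-fold higher in the H2A.X KO cells and 1 was lower by that much, where 7.49% and 3.72% of all measured genes were. Their median log2 ratio was 0.39, against -0.03 for all measured genes. Of the 34, 7 passed the minimum through the H2A.X KO library alone and so had to be higher there, 5 of the 7 at least 2-fold higher among them (Ifnk, Il10rb, Ticam1, Ikbke and Irf2), and without the filter the median was 0.08. Of the 16 interferon ligand genes only Ifnk, the interferon of keratinocytes, reached 1 FPKM, with 2.33 FPKM in the H2A.X KO cells against 0.130 FPKM in the Flox/Flox cells. Ifnb1, the interferon that most cells make first, was at 0.0452 FPKM in the H2A.X KO cells against 0.0354 FPKM in the Flox/Flox cells, and the other ligand genes were at 0.0861 FPKM or less in each library. Among the receptor genes Il10rb, a chain shared by interferon lambda and interleukin 10, was at 2.24 FPKM in the H2A.X KO cells against 0.439 FPKM in the Flox/Flox cells. The receptor chain Ifnar1 stood at 4.75 FPKM in the H2A.X KO cells against 4.73 FPKM in the Flox/Flox cells, a log2 ratio of 0.01.

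Downstream of the sensors, the adaptor Mavs stood at 8.72 FPKM in the H2A.X KO cells against 8.18 FPKM in the Flox/Flox cells, and Irf3 at 6.95 FPKM in the H2A.X KO cells against 6.71 FPKM in the Flox/Flox cells. Other signalling genes lay further apart. Ticam1, the adaptor of the Toll-like receptor for double-stranded RNA, was at 2.68 FPKM in the H2A.X KO cells against 0.756 FPKM in the Flox/Flox cells. Ikbke, a kinase that activates IRF3 and IRF7, was at 1.49 FPKM in the H2A.X KO cells against 0.127 FPKM in the Flox/Flox cells. Rela, the p65 subunit of NF-kB, was at 6.46 FPKM in the H2A.X KO cells against 2.50 FPKM in the Flox/Flox cells. Among inhibitors and nucleases, the repressor Irf2 was at 2.73 FPKM in the H2A.X KO cells against 0.150 FPKM in the Flox/Flox cells. Trex1, which clears cytosolic DNA, was at 4.72 FPKM in the H2A.X KO cells against 1.79 FPKM in the Flox/Flox cells. Adar, the editing enzyme that masks self RNA, lay close in both, at 9.16 FPKM in the H2A.X KO cells against 8.59 FPKM in the Flox/Flox cells. Socs3, an inhibitor of JAK signalling that LIF induces, was lower, at 13.7 FPKM in the H2A.X KO cells against 29.5 FPKM in the Flox/Flox cells.

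Members on both sides of the 2-fold limit held the ISRE letters. Of the 11 members at least 2-fold higher in the H2A.X KO cells, 9 had a promoter sequence and 6 of these held the letters. Of the 29 other members, 22 had a promoter and 12 held them. Genes with the letters that were within 2-fold between the ESC libraries included Ddx58, Ifitm2 and Stat2.

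The second comparison sets the 4N- PF line against the 4N+ PF line. Here Isg15, Usp18, Rsad2, Irf7, Rtp4, Isg20 and Cxcl10 were under 1 FPKM in both lines, while Xaf1 was above its level in the H2A.X KO cells. On the log2(FPKM + 1) scale none of the 40 members was at least 2-fold apart, where 0.577% of 11606 measured genes were so in the higher direction and 0.974% in the lower. In FPKM itself Irgm1 was 3.88-fold, Zbp1 2.59-fold and Igtp 2.26-fold lower in the 4N- line. With 0.1 FPKM added in place of 1 these 3 passed the limit, as did 1.65% of all measured genes in that direction. Of the members furthest apart, Ifitm3 was higher in the 4N- line.

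Of the 21 members measured, 7 were higher and 14 lower in the 4N- line, and 4 of those measured passed the minimum through the 4N+ line alone. Their median log2 ratio was -0.38, while all measured genes had a median of -0.13. Irgm1 was furthest apart, at 0.468 FPKM in the 4N- line against 1.82 FPKM in the 4N+ line, and 42 fragments in the 4N- line against 163 in the 4N+ line gave a ratio of 0.258 (0.179 to 0.364). Igtp had 100 fragments in the 4N- line and 226 in the 4N+ line, a ratio of 0.442 (0.346 to 0.562). Gbp2 had a ratio of 0.637 (0.532 to 0.761), and the ratio was 0.352 (0.235 to 0.517) for Oasl2, 0.396 (0.220 to 0.686) for Cmpk2 and 0.476 (0.318 to 0.702) for Oas1a. Of the 23 members with fragment numbers, the counting interval lay below 1 for 11 and above 1 for 1, Xaf1. Such intervals were not made for all genes, so this count has no share to stand beside. They are not centred, and the 7184 genes at 5 FPKM or more in both lines had a median log2 ratio of -0.17. On log2(FPKM + 1) the ratios were -0.94 for Irgm1, -0.76 for Igtp, -0.72 for Irf1, -0.69 for Ddx58, -0.64 for Zbp1 and -0.61 for Parp9, and 0.91 for Ifitm3.

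Chromosome medians and marker sums also differed between these lines. Irgm1, Igtp and Irf1 lie on chromosome 11, whose 636 genes at 5 FPKM or more in both lines had a median log2 ratio of -0.44, while that over all 7184 such genes was -0.17. On the same chromosome Trim25 had a log2 ratio of -0.37 and Ifi35 one of -0.30. Xaf1, also there, had one of 0.18, and Dhx58, under 1 FPKM in both lines, one of 0.15. Chromosome 11 was not alone in standing apart. The median was -0.43 on chromosome 6, which holds Usp18, and 0.21 on chromosome 17, which holds Eif2ak2. Ddx58, on chromosome 4, had a chromosome median of -0.10, Zbp1, on chromosome 2, one of -0.15, Parp9, on chromosome 16, one of -0.12, and Ifitm3, on chromosome 7, one of -0.14. Relative to the median of those 7184 genes, Ifitm3 stood at 1.07 and Irgm1 at -0.77. With this centring 91 measured genes were higher and 87 lower past the 2-fold limit, against 67 and 113 without it. Of 9 fibroblast markers 1 reached 1 FPKM in the 4N- line against 5 in the 4N+ line, and they summed to 5.30 FPKM in the 4N- line against 57.6 FPKM in the 4N+ line, led by S100a4 with 0.153 FPKM in the 4N- line against 40.1 FPKM in the 4N+ line, with Lum at 0 in both. The part of chromosomes 6, 11 and 17 and of the marker genes in the members' ratios was not tested. The authors' deposited table called none of the 29 members it tested in this pair, where 0.0931% of 13956 genes were called higher and 0.444% lower, and its lowest q-value for a member was 0.104, for Irgm1. In the pathway list 31 genes were measured and none was 2-fold apart on log2(FPKM + 1).

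**Figure D5:**
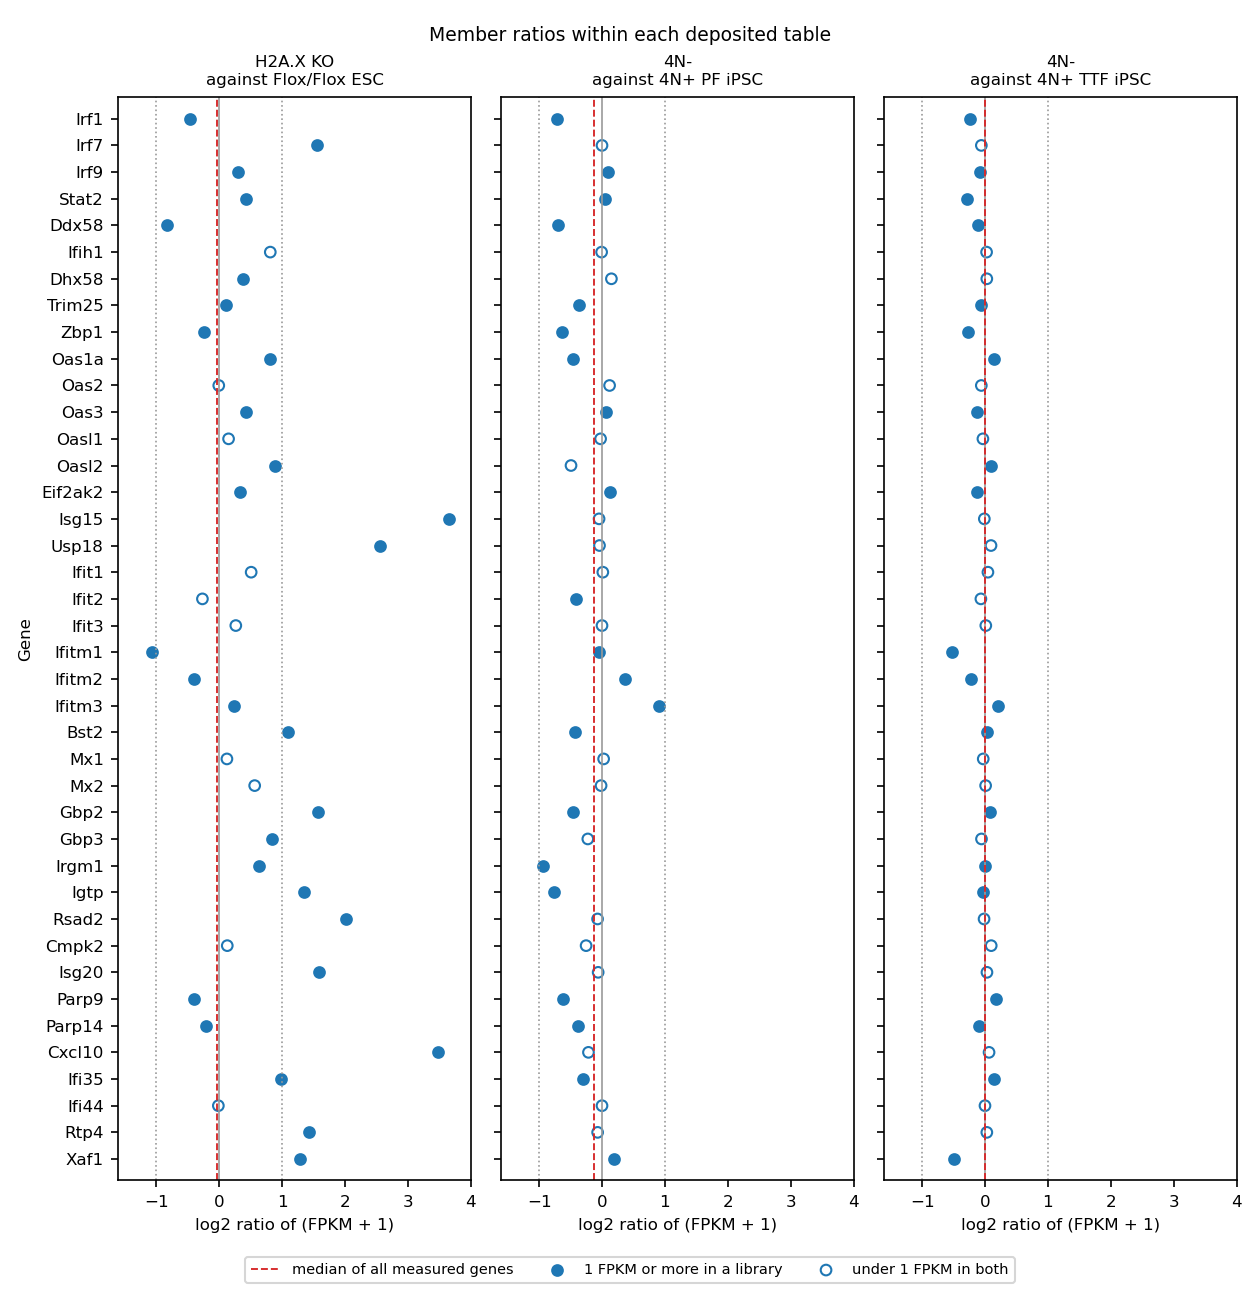
Log2 ratio of (FPKM + 1) for each of the 40 members in the 3 comparisons; filled points reached 1 FPKM in a library of the pair, open points did not, dotted lines mark 2-fold and the dashed red line the median of all measured genes. The left panel spreads from -1.06 (Ifitm1) to 3.65 (Isg15), and the other panels stay within 2-fold on this scale.

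The third comparison, the 4N- TTF line against the 4N+ TTF line, showed the smallest differences. On log2(FPKM + 1) none of the 40 members was at least 2-fold apart, where 0.185% of 11354 measured genes were so in the higher direction and 0.564% in the lower. Of 21 measured members 8 were higher and 13 lower in the 4N- line, while of all measured genes 5689 were higher and 5665 lower. The median log2 ratio was -0.08 for the measured members and 0.00 for all measured genes. On this scale Ifitm1 was furthest apart, with 105 FPKM in the 4N- line against 151 FPKM in the 4N+ line, a log2 ratio of -0.53. Xaf1 followed at -0.48, with 330 fragments in the 4N- line and 503 in the 4N+ line, a ratio of 0.634 (0.550 to 0.730). Usp18, at a very low level, had 11 fragments in the 4N- line and 4 in the 4N+ line, a ratio of 2.66 (0.788 to 11.4). Irgm1 and Igtp, which differed in the PF pair, had ratios of 1.0 (0.879 to 1.15) and 0.974 (0.824 to 1.15) here. Fibroblast markers summed to 5.08 FPKM in the 4N- line against 4.85 FPKM in the 4N+ line. The authors' deposited table called none of the 31 members it tested, where 0.119% of 14289 genes were called higher and 0.182% lower, and its lowest q-value for a member was 0.666. None of the 30 measured pathway genes was 2-fold apart on log2(FPKM + 1).

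Over both iPSC pairs a test was possible, since each label had 2 lines. limma, with the parental cells as a block, tested 11985 genes, 22 of them members, and called 0 members at an adjusted p of 0.05, where 0.0417% of genes were called higher and 0.0751% lower in 4N- lines. At an unadjusted p under 0.05 there were 4 members and 446 genes overall. Irf1 (log2 difference -0.48, SE 0.19), Zbp1 (-0.46, SE 0.18) and Ddx58 (-0.40, SE 0.17) had lower values in both 4N- lines. Ifitm3 (0.56, SE 0.24) had higher values in both, and the adjusted p of each of the 4 was 0.999. Within the TTF pair alone the log2 ratios were -0.24 for Irf1, -0.28 for Zbp1, -0.12 for Ddx58 and 0.21 for Ifitm3. Fits that left out a library had no block, so they also took in differences between PF and TTF lines and between tables. Without the 4N- PF library the differences of Irf1, Zbp1 and Ddx58 were each -0.10, and without the 4N+ PF library that of Ifitm3 was 0.19. Without the 4N- TTF library they were -0.85 for Irf1, -0.82 for Zbp1 and -0.70 for Ddx58, and without the 4N+ TTF library -0.28 for Zbp1 and 0.93 for Ifitm3. For Irgm1 the difference was -0.47 (SE 0.21), and it came from the PF pair, as the TTF pair had a log2 ratio of 0.01. With 1 residual degree of freedom per gene, missing the threshold does not show that the members were alike in 4N- and 4N+ lines. Lines of 1 label are separate cultures from different parental cells, and nothing in the labels ties a pair to the same animal.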

How the data were processed

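The submitters' processing notes name CASAVA, TopHat2 and genome build mm9. The quantifier, annotation, versions and use of strand were not given in the sources used here. Each of the 3 tables compares 2 libraries. The library columns were treated as FPKM as deposited by the authors, from their range and steps. The q-values and calls are those of the authors, per the file headers. The deposited log2 fold change and test statistic were not used, because they set Flox/Flox over H2A.X KO and 4N+ over 4N- and hold replaced infinite values.

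Ratios were formed within a table on log2(FPKM + 1). Measured means 1 FPKM or more in at least 1 library of the table, and no test was made between 2 single libraries. The 4 iPSC libraries were fitted over all genes with limma 3.58.1 (trend, parental cells as a block, Benjamini-Hochberg) in R 4.3.3, a step tested on simulated data. Other steps used Python 3.11.15. Effective depth came from values of intronless receptor genes worth 1 fragment: every other receptor value was within 0.05 of a whole number, and whole fragment numbers at a length within 6% of an annotated transcript were found for 23 members. At this depth 1 FPKM on 2000 bp stood for 70.2 to 110 fragments. Promoters are from RefSeq, and shared stretches from GENCODE transcripts.

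Members, pathway genes and markers were chosen with earlier results of these data known. Genes are named with all values if they are members at 5 FPKM or more in a library or at least 2-fold apart; further members are low-level examples. Pathway genes are named if at least 2-fold apart and at 1 FPKM, plus Mavs, Irf3, Ifnar1, Ifnb1 and Adar; 1 further gene of that rule is not reported here. Alternatives were other pseudocounts, filters, centring, a 1.5-fold limit and fits without block or trend. Each iPSC library was also left out in turn, in fits without the block.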

Additional observations from a re-analysis of the deposited data

Results flagged for a closer look

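For 3 members the PF pair and the TTF pair lay on opposite sides of equal by at least 0.15 on the log2 scale. The log2 ratio of 4N- over 4N+ was 0.36 in the PF pair and -0.22 in the TTF pair for Ifitm2. It was -0.61 in the PF pair and 0.18 in the TTF pair for Parp9. For Xaf1 it was 0.18 in the PF pair and -0.48 in the TTF pair. Each value rests on 1 line per label, and the difference between the pairs was not tested.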

How the results depend on the processing

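In the H2A.X KO against Flox/Flox comparison, 11 members were at least 2-fold higher as reported and 11 with no filter. The number was 15 at pseudocounts of 0.1 and 0.5 FPKM and after centring on the median gene. It was 16 at a 1.5-fold limit and 6 at a 5 FPKM minimum, where fewer genes were tested. Of all genes tested, 7.49% were higher as reported, 13.1% and 10.3% at pseudocounts of 0.1 and 0.5 FPKM, and 11.7% after centring. The share was 17.8% at a 1.5-fold limit, 4.01% with no filter and 6.95% at a 5 FPKM minimum. The number of members lower was 0 after centring, 2 at a 1.5-fold limit and 1 otherwise. Of all genes tested, 1.67% were lower after centring, 15.9% at a 1.5-fold limit and 1.99% to 5.25% otherwise. In the PF pair, members lower in the 4N- line numbered 3 at a pseudocount of 0.1 (Zbp1, Irgm1 and Igtp), 1 at 0.5 (Irgm1) and 6 at a 1.5-fold limit. Of all measured genes 1.65%, 1.25% and 4.85% were lower under these settings. In the same pair 1 member (Ifitm3) was higher after centring and at a 1.5-fold limit, where 0.784% and 1.98% of all measured genes were higher. The TTF pair gave 0 in both directions under each of these alternatives. Centring turned the direction of Ifitm1 (log2 -0.05 to 0.12) in the PF pair and of Irgm1 (0.01 to -0.01) in the TTF pair among measured members. The iPSC fit called 0 members with the replicate block, 0 with no replicate block, and 0 to 0 when each library was left out in turn; calls over all genes were 14 as reported, 3 with no replicate block, 0 with no filter, 67 at a 5 FPKM minimum and 8 to 22 when a library was left out. Single libraries limit all ESC values.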

Other observations

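Exons of 15 members overlap another annotated gene, among them Usp18, Irf1 and Parp9 on the opposite strand, and their levels may include reads of that gene.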
